A study of Mus musculus with 36 samples.

Results

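The effect of the ASPSCR1-TFE3 gene fusion on the kidney was compared between an adult mouse model and a fetal mouse model. The adult effect was the difference between kidney tumors and control kidneys in mice with Sglt2-Cre, the fetal effect was the difference between dysmorphic and control kidneys in fetuses with Pax8-Cre, and the quantity described here is the adult effect minus the fetal effect for every gene. Samples were chosen by their labelled group. They made up 25 of the 36 libraries of the series, from 17 animals. The adult model gave 11 kidney tumor libraries from 6 Sglt2-Cre; ASPSCR1-TFE3 LSL/+ mice and 6 kidney libraries from 3 Sglt2-Cre control mice, and libraries from the same mouse were added together. The fetal model gave kidneys of 5 Pax8-Cre; ASPSCR1-TFE3 LSL/+ fetuses and of 3 control fetuses, with 1 library each. The control fetuses were labelled Pax8-Cre, while the design text also allows for controls that carry only the fusion allele. All tissue was fixed in formalin and embedded in paraffin, and total RNA was sequenced without removal of ribosomal RNA. All 17 animals carried a Cre or a fusion allele, so no wild-type kidney entered the comparison.

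TFE3 belongs to the MiT/TFE transcription factors, which bind short E-box sequences near genes of lysosome biogenesis, autophagy and nutrient sensing, and which are held in the cytoplasm by mTORC1 when nutrients are plentiful. Fusion of the C-terminal part of TFE3 to ASPSCR1 gives a factor that stays in the nucleus, and such fusions define translocation renal cell carcinoma and alveolar soft part sarcoma. Sglt2 (Slc5a2) is a glucose transporter of the proximal tubule, so Sglt2-Cre acts in differentiated tubule cells, whereas Pax8 marks the nephric lineage from early kidney development and Pax8-Cre acts in most epithelium of the forming kidney. Cre driver, age and type of lesion therefore changed together between the models and cannot be told apart. The age of the adult mice and fetuses is not given in the labels.

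Each library held between 95205356 and 120153158 counts. Levels are counts scaled to a common library size (CPM) with TMM factors, and effects are log2 fold changes from a single edgeR quasi-likelihood fit with all 17 animals, with standard errors (SE), 95% intervals and p-values adjusted by the Benjamini-Hochberg method over 24444 genes. A gene was called at an adjusted p under 0.05. A called difference means that the test of the adult effect minus the fetal effect passed. Nothing in the labels says more about how the animals relate to each other than their identifiers, and p-values measure the spread between these animals.

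The labelled tissue was checked with marker genes before the effects were compared. The summed level of 5 proximal tubule markers was 10339 to 10908 CPM in adult controls and 644 to 7096 CPM in kidney tumors, where tumor mice 4 and 5 were highest. It was 1174 to 1365 CPM in control fetuses and 22.2 to 802 CPM in dysmorphic fetuses. Cubn alone gave 1275 CPM of the sum in control fetus 3 and 741 CPM in dysmorphic fetus 5. The other markers in control fetus 3, with Lrp2 at 70.9, Slc34a1 at 1.23, Slc5a2 at 0.265 and Slc22a6 at 0.111 CPM, lay within the range of the dysmorphic fetuses. Control fetus 3 stood apart from the other control fetuses. Its summed distal nephron and collecting duct markers were 4.62 CPM compared to 841 and 320 CPM in control fetuses 1 and 2, its Pax8 was 2.12 CPM compared to 36.9 and 26.3 CPM, and its Muc2, a mucin of the gut, was 642 CPM compared to 2.89 and 16.7 CPM. Its 3 liver markers summed to 1099 CPM, compared to 75.4 and 296 CPM and to 9.13 to 675 CPM in dysmorphic fetuses. Afp gave 596 CPM and Apoa1 490 CPM of that sum. Alb was 12.9 CPM, compared to 4.83 and 8.13 CPM in the other control fetuses and 6.59 to 205 CPM in dysmorphic fetuses. Defining tubule markers were thus nearly absent from a library labelled control kidney, and whether it held kidney alone was not tested. The 5 skeletal muscle markers summed to 4298 to 11835 CPM in dysmorphic fetuses, 1972 to 2157 CPM in control fetuses and at most 212 CPM in any adult. The 4 cartilage markers reached 2323 CPM in a dysmorphic fetus and at most 17 CPM in control fetuses, and 4 pigment cell markers were 22.8 to 45.5 CPM compared to 5.36 to 6.19 CPM. In bulk tissue, fewer cells of a type and less RNA per cell cannot be told apart. The part of these tissue differences in the results that follow was not tested.

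**Figure D1:**
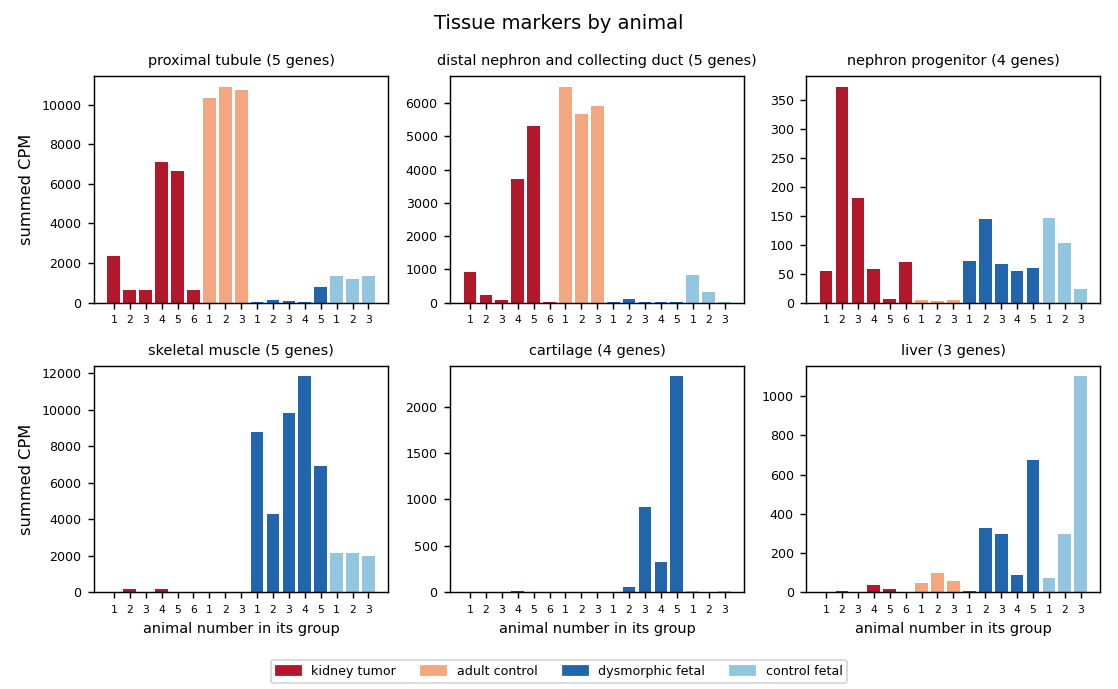
Summed level of marker genes of several tissues (CPM, linear axis from 0), with a bar for each of the 17 animals, numbered within their group and colored by group (kidney tumor, adult control, dysmorphic fetus, control fetus). Skeletal muscle markers were higher in all 5 dysmorphic fetuses than in all 3 control fetuses, and the proximal tubule sum, which was mostly Cubn in control fetus 3, was lower.

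Sex and origin were unevenly spread. Y-linked transcripts marked 2 of the 6 tumor mice, none of the 3 adult controls, 3 of the 5 dysmorphic fetuses and 1 of the 3 control fetuses as male. Titles of dysmorphic fetuses 1 to 3 and control fetuses 1 and 2 began with H0248 and those of the other fetuses with M1833, and the labels do not say what the prefix marks. With sex as a covariate, the difference was called for 2548 genes, and with the prefix as a covariate for 2336, compared to 2185 without either. Within the H0248 fetuses alone it was called for 970 genes and within the M1833 fetuses alone, which include a single control, for 307.

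For the fusion partners themselves no difference was called. Tfe3 levels were 16.9 to 36.2 CPM in kidney tumors, with a median of 29.6 CPM, and 17.8, 22.9 and 24.7 CPM in adult controls, and 16.5, 14.5, 14.1, 22.2 and 16.3 CPM in dysmorphic fetuses and 16.6, 17 and 17.4 CPM in control fetuses. The groups overlapped within each model, and the difference of the effects was 0.36 (SE 0.31, 95% interval -0.30 to 1.02, adjusted p = 0.511). For Aspscr1 the adult effect was -0.36 and the fetal effect -0.39, with neither called. Whether reads of the fusion transcript were counted under these mouse genes is not given in the sources used here, so these values do not check the labels.

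Of 24444 genes tested, 2185 (8.94%) had a called difference between the adult and the fetal effect. The adult effect was above the fetal effect for 1680 of them (6.87%) and below it for 505 (2.07%). Most of the 1680 genes, 1550, were called higher in kidney tumors with no call in the fetuses, 13 were called lower in the dysmorphic fetuses with no call in tumors, and 112 were called in neither effect alone. Of the 505 genes, 304 were called lower in tumors only, 45 were called higher in dysmorphic fetuses only and 153 in neither. Over all genes, 5921 (24.2%) were called for the adult effect and 159 (0.65%) for the fetal effect, while 4314 genes had an unadjusted p under 0.05 for the fetal effect. A call in 1 model alone was thus common and was not taken as a difference unless the difference itself passed. The fetal count was 0 without control fetus 1 or 2, 15 without dysmorphic fetus 1 or 3 and 1052 without dysmorphic fetus 5. The adult count was 3040 without adult control 2 and 7060 without tumor mouse 5. With DESeq2 the adult and fetal counts were 7692 and 1749. The median difference over all genes was 0.16.

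Precision set how small a difference could be seen. The 95% interval of the difference reached a median of 1.18 log2 units to either side, and it exceeded 1 log2 unit for 57% of the genes. This interval is not adjusted for the number of genes, so a call asked for a larger difference than it spans to either side. The count of 2185 fell to 956 without adult control 2, to 1029 without adult control 3, to 1347 without adult control 1, to 1219 without control fetus 2 and to 1236 without control fetus 3. Of those, 946, 1016, 1257, 1194 and 1176 were among the 2185.

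**Figure D2:**
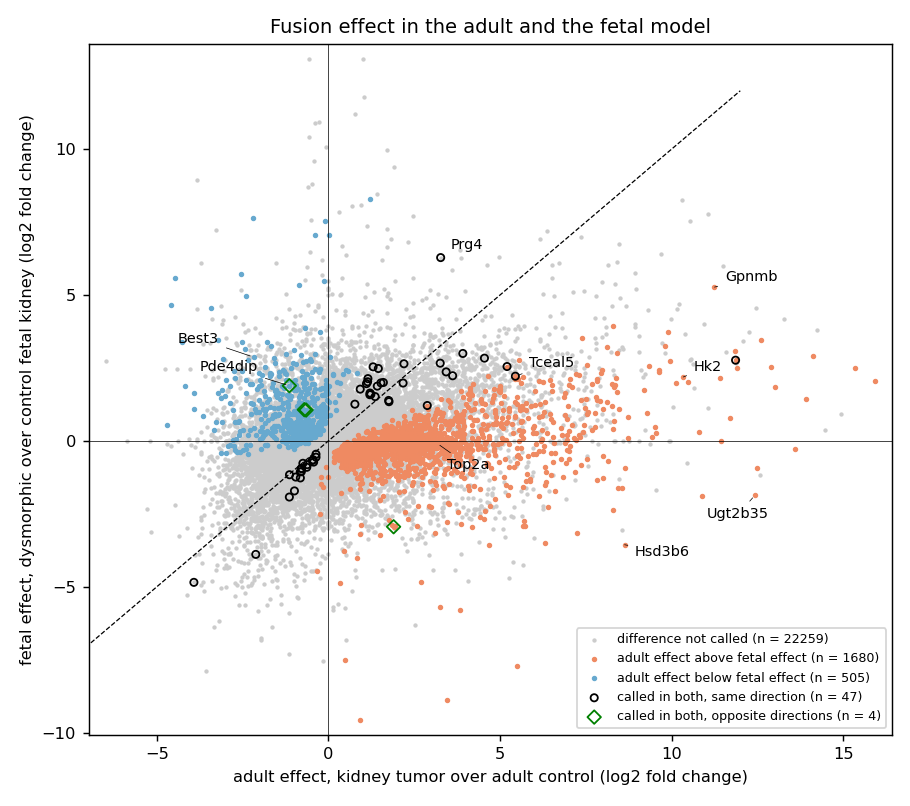
Adult effect (kidney tumor minus adult control, log2, x axis) against fetal effect (dysmorphic minus control fetus, log2, y axis) for the 24444 genes tested, with called differences, shared genes and genes called in opposite directions in colors. The 1680 genes whose adult effect was above the fetal effect lie below the diagonal, mostly at an adult effect above 0 and a fetal effect near 0.

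The direction of the adult effect was partly kept in the fetuses. Of the 3797 genes called higher in tumors (15.5%), 60.6% had a fetal effect above 0, compared to 45.5% of all genes, with a median of 0.15 compared to -0.05, and 19.4% were higher in every dysmorphic fetus than in every control fetus, compared to 8.79% of all genes. Of the 2124 genes called lower in tumors (8.69%), 27.9% had a fetal effect above 0, again compared to 45.5%, and 13.7% were lower in every dysmorphic fetus than in every control fetus, compared to 5.17% of all genes.

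Genes of cell division rose in tumors and were high in fetuses of both genotypes. Of 22 proliferation genes tested, 20 were called with an adult effect above the fetal effect and none below, compared to 6.87% and 2.07% of all genes. The median adult effect was 2.68, the median fetal effect -0.19 and the median difference 2.80. Mki67, the nuclear antigen used to score dividing cells, stood at 220 to 377 CPM in kidney tumors, with a median of 283 CPM, and 35.1, 36 and 52 CPM in adult controls. In the fetuses it stood at 1766, 1492, 1753, 1863 and 1492 CPM in dysmorphic fetuses and 1496, 1719 and 1788 CPM in control fetuses. Levels in the fetuses were above those of every tumor in both genotypes, and the fetal groups overlapped, while all tumors were above all adult controls. The difference was 2.79 (SE 0.25, 95% interval 2.25 to 3.33, adjusted p = 4.9e-06). Cdk1, the kinase that drives entry into mitosis, had levels of 13.3 to 23.5 CPM in kidney tumors, with a median of 19.5 CPM, and 1.54, 1.37 and 1.45 CPM in adult controls, and 82.3, 70.8, 80.2, 75.7 and 57 CPM in dysmorphic fetuses and 78.1, 82 and 73.3 CPM in control fetuses. Its adult effect was 3.71 and its fetal effect -0.09, a difference of 3.80 (SE 0.25, 95% interval 3.26 to 4.34, adjusted p = 7.55e-07). For Top2a, which untangles replicated DNA, the difference was 3.24 (SE 0.23, 95% interval 2.76 to 3.72, adjusted p = 9.37e-07). Ccnb1, the cyclin partner of Cdk1, differed by 3.93 and Birc5, an inhibitor of apoptosis found on mitotic chromosomes, by 3.81. These 5 calls held in all 17 fits that each left out an animal. Exceptions in the list were Pcna, the DNA polymerase clamp, with a difference of 0.89 (SE 0.30, 95% interval 0.24 to 1.53, adjusted p = 0.0803), and Tyms, thymidylate synthase, with -0.08 (SE 0.20, 95% interval -0.51 to 0.35, adjusted p = 0.854). The list gave 19 to 21 calls when any animal was left out.

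Of the targets of the MiT/TFE factors, 18 were called higher in tumors, compared to 15.5% of all genes. None was called in the fetuses, near the 0.417% of all genes called higher there. Of 25 MiT/TFE target genes tested, 12 were called with an adult effect above the fetal effect and none below, compared to 6.87% and 2.07% of all genes. Their median adult effect was 1.58, their median fetal effect 0.15 and their median difference 1.54. Without control fetus 3 the MiT/TFE target genes had a median fetal effect of 0.50 and a median difference of 1.34. The difference was called for 7 of them without adult control 1 or control fetus 3 and for 4 without adult control 2 or 3. In the fetuses 5 of the 25 were higher in every dysmorphic than in every control kidney, compared to 8.79% of all genes.

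Gla, the lysosomal alpha-galactosidase that is deficient in Fabry disease (chrX:134588149-134601125, GRCm38), stood at 112 to 329 CPM in kidney tumors, with a median of 213 CPM, and 6.06, 6.33 and 5.52 CPM in adult controls. Fetal levels were 18.5, 56.3, 14.3, 7.11 and 19 CPM in dysmorphic fetuses and 9.53, 15 and 21.2 CPM in control fetuses. The tumors were above the adult controls without overlap, whereas the fetal groups overlapped, with dysmorphic fetus 2 highest. The adult effect of 5.19 and the fetal effect of 0.60 gave a difference of 4.59 (SE 0.81, 95% interval 2.86 to 6.32, adjusted p = 0.00261). Ctsd, a lysosomal aspartic protease (chr7:142375911-142388038, GRCm38), had levels of 442 to 1097 CPM in kidney tumors, with a median of 746 CPM, and 98.2, 103 and 100 CPM in adult controls, and 61.6, 119, 47, 53.9 and 80.4 CPM in dysmorphic fetuses and 41.3, 40.6 and 67.1 CPM in control fetuses. Again the adult groups were apart and the fetal groups overlapped, and the difference was 2.36 (SE 0.49, 95% interval 1.31 to 3.40, adjusted p = 0.00842). Mcoln1, the calcium channel of the lysosome (chr8:3500457-3515232, GRCm38), differed by 2.19 (SE 0.49, 95% interval 1.15 to 3.24, adjusted p = 0.013), with a fetal effect of -0.67. Without control fetus 3, which had the highest fetal level of Mcoln1, its fetal effect was -0.20 and its difference 1.67 (edgeR adjusted p = 0.0498). The calls of Gla, Ctsd and Mcoln1 held whichever animal was left out.

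Other calls among the targets depended on a control. Hexa, a hexosaminidase, differed by 2.87 (SE 0.67, 95% interval 1.44 to 4.30, adjusted p = 0.0164), a call lost without adult control 1 or 3 or control fetus 3. Sqstm1, the autophagy receptor p62, differed by 1.54 (SE 0.39, 95% interval 0.72 to 2.37, adjusted p = 0.0234), lost without adult control 1, 2 or 3 or control fetus 3. Uvrag, an autophagy regulator, differed by 1.44 (SE 0.35, 95% interval 0.70 to 2.18, adjusted p = 0.0196), lost without adult control 2 or 3 or control fetus 2. The cathepsins Ctsb and Ctsl differed by 2.19 and 2.53, and their calls held in 7 and 6 of the 17 fits, lost without tumor mouse 3 or 6, adult control 1, 2 or 3, dysmorphic fetus 1, 3 or 4 or control fetus 2 or 3, and for Ctsl also without tumor mouse 2. Ctsk, a cathepsin used to mark TFE3 tumors, had close estimates in both models with a wide interval. Its levels were 5.58 to 27.8 CPM in kidney tumors, with a median of 23.7 CPM, and 3.24, 4.36 and 4.92 CPM in adult controls, and 23.3, 9.69, 25.9, 31.1 and 28.4 CPM in dysmorphic fetuses and 5.22, 4.04 and 5.34 CPM in control fetuses. Neither model had overlapping groups. The adult effect was 2.19 (adjusted p = 0.00557, edgeR), the fetal effect 2.28 (adjusted p = 0.0527, short of a call), and the difference -0.09 (SE 0.64, 95% interval -1.45 to 1.26, adjusted p = 0.953).

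The promoters of MiT/TFE target genes were examined because these factors bind the E-box CACGTG, mostly as TCACGTG or the related TCATGTG. In the RefSeq windows from 250 bases before to 50 after the transcription start (GRCm38.p6), CACGTG on either strand was found for 9 of 20 MiT/TFE target genes with a window (45%) and for 10.3% of 14238 tested genes. TCACGTG, which contains CACGTG, was found for 35% compared to 5.93% and TCATGTG for 20% compared to 3.1%. Among genes with a called difference, CACGTG was found for 12.6% of 1171 with the adult effect above and for 10.5% of 344 with it below. A match says nothing on binding. The list was made of targets of factors that bind this E-box, so its share of matches is not a result of these data. Windows of 3 targets with called differences are printed 5′ to 3′ on the strand of the gene, with capitals for each CACGTG, with its flanking T and A where present, or TCATGTG. They are Gla at chrX:134600956-134601255, minus strand, Mcoln1 at chr8:3500269-3500568, plus strand and Rragc at chr4:123917183-123917482, plus strand.
Gla: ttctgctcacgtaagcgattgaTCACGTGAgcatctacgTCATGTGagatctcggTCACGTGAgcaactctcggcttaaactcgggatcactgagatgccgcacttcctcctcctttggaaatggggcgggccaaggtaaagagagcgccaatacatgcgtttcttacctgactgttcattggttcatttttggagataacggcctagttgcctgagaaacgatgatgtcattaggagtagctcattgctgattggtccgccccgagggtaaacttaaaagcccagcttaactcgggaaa
Mcoln1: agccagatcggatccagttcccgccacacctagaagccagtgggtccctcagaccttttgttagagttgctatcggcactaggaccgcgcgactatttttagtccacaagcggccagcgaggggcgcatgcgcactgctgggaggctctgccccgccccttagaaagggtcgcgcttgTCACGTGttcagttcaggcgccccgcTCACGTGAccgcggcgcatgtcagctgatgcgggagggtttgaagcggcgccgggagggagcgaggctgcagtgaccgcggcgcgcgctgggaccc
Rragc: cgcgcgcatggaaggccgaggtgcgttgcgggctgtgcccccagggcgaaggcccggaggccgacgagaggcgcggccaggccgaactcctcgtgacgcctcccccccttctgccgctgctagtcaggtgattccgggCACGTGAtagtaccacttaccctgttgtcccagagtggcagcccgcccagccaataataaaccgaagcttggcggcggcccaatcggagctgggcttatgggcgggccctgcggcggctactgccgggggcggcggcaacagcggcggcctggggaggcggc
Gla held 3 such sites, Mcoln1 2 and Rragc 1.

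Of 20 Rag and mTORC1 regulators, which sense nutrients at the lysosome, 6 were called with an adult effect above the fetal effect and none below, compared to 6.87% and 2.07% of all genes. Their median difference was 0.56, and the interval of the difference lay within 1 log2 unit of 0 for 7. This count fell to 3 without adult control 1 or control fetus 3 and to 1 without adult control 2 or 3. Tsc1, which restrains mTORC1 and whose call held in all 17 fits, had levels of 210 to 408 CPM in kidney tumors, with a median of 272 CPM, and 72.4, 86.5 and 89.2 CPM in adult controls, and 47.7, 75.2, 43.7, 56 and 56.3 CPM in dysmorphic fetuses and 51.6, 40.1 and 53 CPM in control fetuses. Tumors were above adult controls without overlap and the fetal groups overlapped, with a difference of 1.58 (SE 0.32, 95% interval 0.90 to 2.25, adjusted p = 0.00638). Rragc, a Rag GTPase that brings mTORC1 to the lysosome, differed by 1.79 (SE 0.42, 95% interval 0.89 to 2.68, adjusted p = 0.0171) and its partner Rragb by 4.02 (SE 0.93, 95% interval 2.04 to 5.99, adjusted p = 0.0154). Both calls were lost without adult control 2 or 3. The adult effect of Rragb was 5.08, against 1.06 in the fetuses. Fnip2, a partner of folliculin, differed by 1.88, called in 10 of the 17 fits and lost without tumor mouse 3, adult control 1, 2 or 3 or control fetus 1, 2 or 3. Rragd, with a difference of 1.61 (SE 0.52, 95% interval 0.51 to 2.72, adjusted p = 0.0648), was not called, and Sesn1 and Rptor had differences of -0.56 and -0.07 without a call.

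V-ATPase subunits build the proton pump that acidifies the lysosome. Of 22 tested, 5 were called with an adult effect above the fetal effect and none below, compared to 6.87% and 2.07% of all genes, with a median adult effect of 0.58 and a median fetal effect of -0.31, which was -0.05 without control fetus 3. A further 5, Atp6v1b1, Atp6v0a4, Atp6v0d2, Atp6v1c2 and Atp6v1g3, were lower in every tumor than in every adult control, compared to 13.8% of all genes, with adult effects of -2.77 to -1.78 and no call. Only Atp6v0a1, a subunit of the membrane sector, kept its call in all 17 fits that left out an animal. It stood at 269 to 891 CPM in kidney tumors, with a median of 658 CPM, and 111, 122 and 119 CPM in adult controls, and 114, 127, 121, 127 and 166 CPM in dysmorphic fetuses and 79.1, 99 and 164 CPM in control fetuses. The adult groups were apart and the fetal groups overlapped, and the difference was 2.19 (SE 0.49, 95% interval 1.14 to 3.23, adjusted p = 0.0134). Without adult control 1, adult control 3 or control fetus 3 the V-ATPase subunits gave 1 call, and 2 or 3 calls without adult control 2, control fetus 2, tumor mouse 2, 3 or 6 or dysmorphic fetus 3 or 4.

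Of 12 melanocytic and PEComa markers tested, some of which are used to recognize TFE3 tumors, 7 were called higher in tumors and 1 lower, compared to 15.5% and 8.69% of all genes. In the fetuses 11 were higher in every dysmorphic fetus than in every control fetus, and 7 were higher in every fusion animal of both models, compared to 8.79% and 2.32% of all genes. None of the 12 was called for the fetal effect, near the 0.65% of all genes. The difference was called above 0 for 3 and below 0 for 1, compared to 6.87% and 2.07% of all genes, and above 0 for 1 without adult control 2 or 3. Gpnmb, a melanosome and macrophage glycoprotein, stood at 2691 to 7424 CPM in kidney tumors, with a median of 5089 CPM, and 2.44, 2.29 and 1.55 CPM in adult controls. Fetal levels were 168, 563, 39.6, 15.2 and 66.3 CPM in dysmorphic fetuses and 6.02, 6.75 and 0.462 CPM in control fetuses. Neither model had overlapping groups, and all tumors were above all dysmorphic fetuses. Effects were 11.25 in adults and 5.27 in fetuses (the latter with edgeR adjusted p = 0.0537). Their difference lay between 3.02 and 8.93 with 95% confidence, and its call was lost without adult control 2 or 3. Trpm1, an ion channel of melanocytes, had levels of 148 to 523 CPM in kidney tumors, with a median of 286 CPM, and 0.471, 0.13 and 0.382 CPM in adult controls, and 13.6, 23.9, 5.34, 7.05 and 4.33 CPM in dysmorphic fetuses and 1.72, 0.712 and 0 CPM in control fetuses. Its difference was 6.15 (SE 1.36, 95% interval 3.26 to 9.05, adjusted p = 0.0119), lost without adult control 2, and control fetus 3 had no count of it. Pmel, the amyloid protein of the melanosome, had an adult effect of 7.79 and a fetal effect of 4.97, with a difference of 2.81 (SE 1.49, 95% interval -0.36 to 5.99, adjusted p = 0.261). Mitf, the melanocyte member of the factor family, was the gene called below 0, with an adult effect of -1.04, a fetal effect of 0.62 and a difference of -1.66, and its call held in 10 of 17 fits, lost without adult control 2 or 3, dysmorphic fetus 1, 3 or 4 or control fetus 2 or 3. Beside these values, the 4 pigment cell markers summed to 210 CPM in tumor mouse 4 and to at most 1.02 CPM in the other tumors. In tumor mouse 4 this sum was nearly all Dct, while Tyr, Mlana and Sox10 were 0.0201, 0.0602 and 0.551 CPM.

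Among metabolic genes, Hk2, the hexokinase that traps glucose in growing cells (chr6:82725025-82774454, GRCm38), stood at 640 to 2635 CPM in kidney tumors, with a median of 1799 CPM, and 1.38, 1.15 and 1.52 CPM in adult controls. Fetal levels were 100, 237, 56.6, 64.2 and 69.1 CPM in dysmorphic fetuses and 22.4, 21.7 and 25.4 CPM in control fetuses. Every fusion animal was above every control of its model. The adult effect of 10.34 and the fetal effect of 2.19 differed by 8.16 (SE 0.79, 95% interval 6.48 to 9.84, adjusted p = 9.69e-06), and the call held in all 17 fits. Among 19 glycolysis genes tested, the difference was called above 0 for Hk2 and Pfkp and below 0 for Pfkm and Pgam2, 4 of 19 compared to 8.94% of all genes. Pfkp was called in 5 and Pgam2 in 3 of the 17 fits, and Hk2 alone of these 4 was called without adult control 2. Pfkm, the muscle form of phosphofructokinase, had an adult effect of 0.0 and a fetal effect of 1.64, with a difference of -1.64 (SE 0.38, 95% interval -2.44 to -0.83, adjusted p = 0.0154) that was lost without adult control 2. Skeletal muscle markers were higher in the same fetuses, as given above. Aldoa, an aldolase of muscle and most other cells, had nearly equal effects of 1.05 and 1.06, with an interval of the difference from -0.73 to 0.72.

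Of 20 NRF2 targets and glutathione genes, 3 were called, all with the adult effect above, compared to 6.87% of all genes, and 6 to 8 were called without tumor mouse 1, 4 or 5 or dysmorphic fetus 2 or 5. Slc7a11, the cystine importer that feeds glutathione synthesis, had levels of 10.7 to 209 CPM in kidney tumors, with a median of 59.3 CPM, and 0.289, 0.309 and 0.425 CPM in adult controls, and 1.82, 5.42, 1.98, 3.23 and 5.55 CPM in dysmorphic fetuses and 1.87, 0.934 and 1.37 CPM in control fetuses. The adult groups were far apart and the fetal groups overlapped slightly, with a difference of 6.53 (SE 1.03, 95% interval 4.34 to 8.72, adjusted p = 0.00104). Akr1b8, an aldo-keto reductase, stood at 28.4 to 76.3 CPM in kidney tumors, with a median of 58 CPM, and 4.2, 2.76 and 3.09 CPM in adult controls, and 7.38, 7.2, 4, 7.48 and 5.07 CPM in dysmorphic fetuses and 7.48, 7.26 and 5.55 CPM in control fetuses. Its fetal effect was -0.12, and the difference was 4.12 (SE 0.47, 95% interval 3.12 to 5.11, adjusted p = 4.37e-05). Both calls held in all 17 fits. Hmox1, heme oxygenase, differed by 2.47 (SE 0.59, 95% interval 1.21 to 3.73, adjusted p = 0.0186), lost without adult control 1 or 3 or control fetus 2. Of 20 serine synthesis and ATF4 targets 2 were called, near the 8.94% of all genes. They were Slc7a11 and the stress factor Atf5, with a difference of 1.84 (SE 0.42, 95% interval 0.94 to 2.74, adjusted p = 0.0149) that held in all 17 fits. Of 20 cholesterol synthesis genes 3 were called above 0, compared to 6.87% of all genes, and 1 without tumor mouse 3, adult control 1, 2 or 3, dysmorphic fetus 4 or control fetus 3. Insig1, which retains the sterol sensor in the endoplasmic reticulum, stood at 329 to 841 CPM in kidney tumors, with a median of 568 CPM, and 21.9, 43.6 and 34.3 CPM in adult controls, and 68.8, 184, 33.7, 30.9 and 152 CPM in dysmorphic fetuses and 24.3, 153 and 210 CPM in control fetuses. Tumors were above adult controls without overlap, and in the fetuses control fetus 3 was highest and control fetus 1 lowest. The difference was 4.57 (SE 0.95, 95% interval 2.54 to 6.60, adjusted p = 0.00836) and held in all 17 fits, whereas Sqle, squalene epoxidase, differed by 1.89 and was lost without tumor mouse 3, adult control 1, 2 or 3, dysmorphic fetus 4 or control fetus 3. Of 19 UDP-glucuronosyltransferases 4 were called, all with the adult effect above, compared to 6.87% of all genes, and the count was 1 without adult control 1, 2 or 3, 2 without control fetus 2 and 10 without dysmorphic fetus 5. These enzymes conjugate steroids and drugs, and several share exons or close sequence, so how reads were divided among them is uncertain.

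Of 17 nephron progenitors list genes 3 differences were called, and 1 without adult control 1, 2 or 3 or control fetus 1. Of 16 kidney injury markers 4 were called, 1 without adult control 2 and 2 without adult control 3 or control fetus 1. All had the adult effect above, compared to 6.87% of all genes. The adult effect was above 0 for 6 of the 17 progenitor genes, compared to 54.7% of all genes, with a median of -0.61. Of these 17, 4 were higher and 4 lower in every tumor than in every adult control, compared to 14.5% and 13.8% of all genes. Of the 16 injury markers, 6 were higher and 4 lower in every tumor. Ret, the receptor that guides branching of the ureteric bud (chr6:118151745-118197718, GRCm38), stood at 31.7 to 163 CPM in kidney tumors, with a median of 48 CPM, and 0.778, 0.994 and 0.915 CPM in adult controls. Levels were 5.63, 21.9, 3.33, 2.49 and 41.5 CPM in dysmorphic fetuses and 19.4, 30.9 and 33 CPM in control fetuses. All tumors were above all adult controls, and the fetal groups overlapped. Effects of 6.30 in adults and -0.89 in fetuses gave a difference of 7.19 (SE 1.24, 95% interval 4.56 to 9.82, adjusted p = 0.00216). Sox9, a factor of repairing tubules and of cartilage, had levels of 6.42 to 104 CPM in kidney tumors, with a median of 64.1 CPM, and 1.12, 1.32 and 0.945 CPM in adult controls, and 8.55, 10.9, 8.33, 11.6 and 19.5 CPM in dysmorphic fetuses and 6.85, 10.6 and 10.8 CPM in control fetuses. Its difference was 5.33 (SE 0.98, 95% interval 3.25 to 7.42, adjusted p = 0.00348). The calls of Ret and Sox9 held in all 17 fits. Eya1 and Cited1, genes of the nephron progenitors, had adult effects of 6.14 and 4.80 and fetal effects of -0.34 and -0.10. The Eya1 difference of 6.48 was lost without adult control 1, 2 or 3 or control fetus 1, and that of Cited1, 4.90, held in 4 of 17 fits and was lost among others without adult control 1, 2 or 3 or control fetus 1 or 2. Their levels in tumors ranged widely, from 2.81 to 333 CPM for Eya1. Six2, the defining factor of nephron progenitors, was at most 0.0802 CPM in any tumor and 0 CPM in adult controls, so no ratio is given. Lcn2, an injury protein shed into urine, differed by 5.01 (SE 1.26, 95% interval 2.32 to 7.69, adjusted p = 0.0238), lost without adult control 2 or 3 or control fetus 1. Over the 17 fits its difference ran from 3.21 to 5.58, and its level in control fetuses was 14.1, 3.2 and 0.53 CPM. Vcam1, an adhesion molecule of injured tubules, had a difference of 2.91 (SE 0.67, 95% interval 1.48 to 4.34, adjusted p = 0.0154), lost without adult control 2.

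Factors that specify the nephric lineage had effects above 0 for 1 of 14 genes in each model, compared to 54.7% of all genes in adults and 45.5% in fetuses. Of 14 renal lineage factors tested, the difference was called above 0 for Emx2 alone, near the 6.87% of all genes. Emx2, needed for the ureteric bud, had levels of 24.1 to 65.1 CPM in kidney tumors, with a median of 45.4 CPM, and 36.1, 30.9 and 39.4 CPM in adult controls, and 7.68, 6.92, 4.94, 5.86 and 2.48 CPM in dysmorphic fetuses and 30.5, 17.4 and 10.5 CPM in control fetuses. The adult groups overlapped and the fetal groups did not, with the dysmorphic fetuses lower. Its fetal effect of -1.80 and adult effect of 0.36 differed by 2.17 (SE 0.55, 95% interval 1.01 to 3.33, adjusted p = 0.0237), a call lost without adult control 1, 2 or 3 or control fetus 1. The median effect of the 14 was -1.69 in the adult model and -2.37 in the fetal model, and the latter was -2.28 without control fetus 3. Control fetus 3, in which Pax8 was 2.12 CPM, lay apart for that factor.

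**Figure D3:**
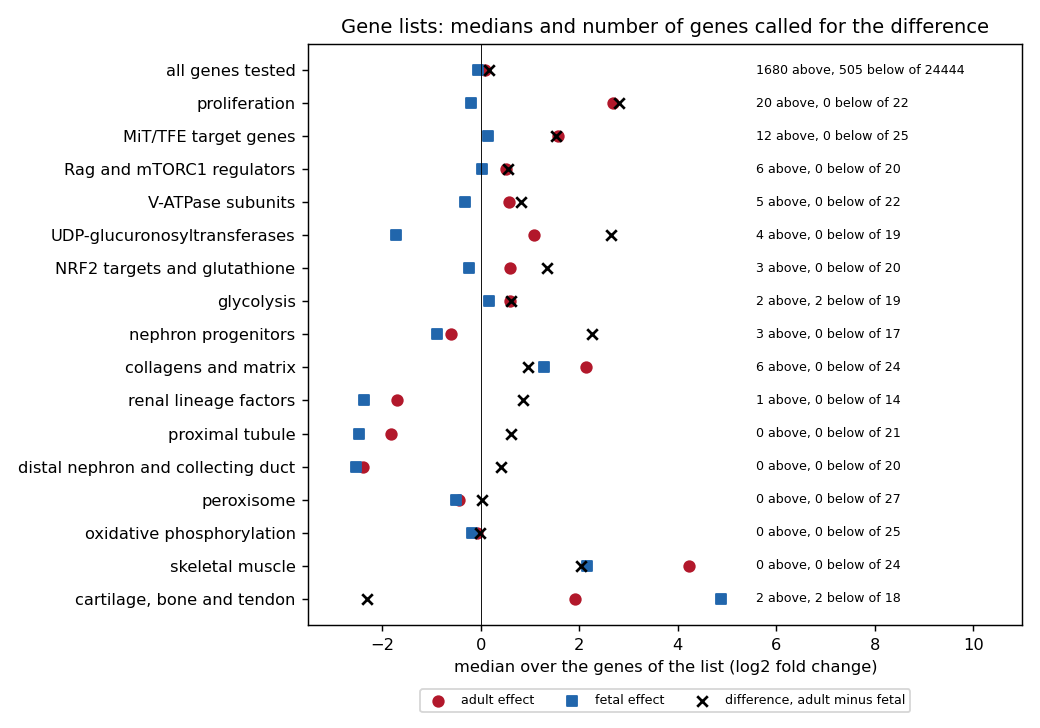
Median adult effect (circles), median fetal effect (squares) and median difference (crosses) over the genes of 16 lists and over all genes tested (log2 fold change, x axis), with the number of called differences above and below 0 and of genes tested beside each. Proliferation genes had a median of 2.68 in adults and -0.19 in fetuses, whereas oxidative phosphorylation genes lay near 0 in both.

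The largest positive differences were sought among genes with a mean level of at least 2 (log2 CPM). Genes whose groups overlapped in the model with the larger effect, such as Muc2, were left out. Those found came from genes with little or no transcript in the adult control kidney. Ugt2b35, a UDP-glucuronosyltransferase (chr5:87000860-87013275, GRCm38), stood at 23 to 842 CPM in kidney tumors, with a median of 352 CPM, and 0.112, 0.0716 and 0.0258 CPM in adult controls, and 0.565, 4.61, 1.05, 0.213 and 24.2 CPM in dysmorphic fetuses and 0.862, 24.7 and 41.1 CPM in control fetuses. Fetal levels varied widely in both genotypes, and the difference was 14.29 (SE 2.70, 95% interval 8.54 to 20.04, adjusted p = 0.00423). Hsd3b6, a 3-beta-hydroxysteroid dehydrogenase (chr3:98805504-98814443, GRCm38), stood at 9.09 to 768 CPM in kidney tumors, with a median of 41.1 CPM, and 0.843, 0.564 and 0.571 CPM in adult controls. It stood at 0.397, 1.29, 0.486, 0.08 and 0.251 CPM in dysmorphic fetuses and 12.5, 3.67 and 1.64 CPM in control fetuses. Tumors rose above adult controls while dysmorphic fetuses were all below the control fetuses, with effects of 8.63 and -3.56 and a difference of 12.19 (SE 2.36, 95% interval 7.18 to 17.21, adjusted p = 0.0049). Ivl, involucrin of the cornified envelope of skin, was higher without overlap in both models, at 30.9 to 413 CPM in kidney tumors, with a median of 254 CPM, and 0.0839, 0.0179 and 0.00859 CPM in adult controls, and 17.6, 47.2, 5.98, 22.7 and 11.8 CPM in dysmorphic fetuses and 2.33, 1.06 and 2.37 CPM in control fetuses. Its difference was 9.14 (SE 1.37, 95% interval 6.23 to 12.05, adjusted p = 0.000694). Nrsn1, a neuronal membrane protein, had no count in adult controls and was at least 898-fold higher in tumors, against a floor of 3 counts in each adult control, with a fetal effect of 1.43. Lce1a2, a late cornified envelope gene, also had no count in adult controls and was at least 1032-fold higher in tumors. In the fetuses it stood at 19.1, 23.6, 33.7, 87.2 and 31 CPM in dysmorphic fetuses and 8.96, 6.54 and 0 CPM in control fetuses, and its call was lost without adult control 1, 2 or 3 or control fetus 1 or 2. Its neighbor Lce1d lost its call in the same 5 fits. Control fetus 3 had no count of either gene. Nmrk2, a nicotinamide riboside kinase of muscle, stood at 1.91 to 101 CPM in kidney tumors, with a median of 18.3 CPM, and 0.00932, 0 and 0 CPM in adult controls, with a fetal effect of 2.54, and with so few control counts its fitted fold depends on the prior count. Eef1a2, the elongation factor of muscle and neurons, had levels of 0.902 to 104 CPM in kidney tumors, with a median of 32.5 CPM, and 0.0652, 0.0269 and 0 CPM in adult controls, and 50.1, 18.6, 31.2, 34 and 35.8 CPM in dysmorphic fetuses and 6.7, 9.11 and 9.54 CPM in control fetuses. Its adult effect of 10.47 and fetal effect of 2.01 differed by 8.46 (SE 1.79, 95% interval 4.65 to 12.27, adjusted p = 0.00901). Brinp3 and Spaca7 differed by 8.32 and 10.15. The calls of Ugt2b35, Hsd3b6, Ivl, Nrsn1, Nmrk2, Eef1a2, Brinp3 and Spaca7 held in all 17 fits. Clec18a, a lectin, differed by 10.06 and was lost without adult control 1, 2 or 3. Dmbt1, a mucosal glycoprotein, differed by 8.65, and by 7.78 to 13.34 over the 17 fits. Its call held in 4 of them, lost among others without control fetus 1, 2 or 3. Dmbt1 stood at 1209 and 713 CPM in control fetuses 2 and 3, in which the gut gene Muc2 was 16.7 and 642 CPM.

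**Figure D4:**
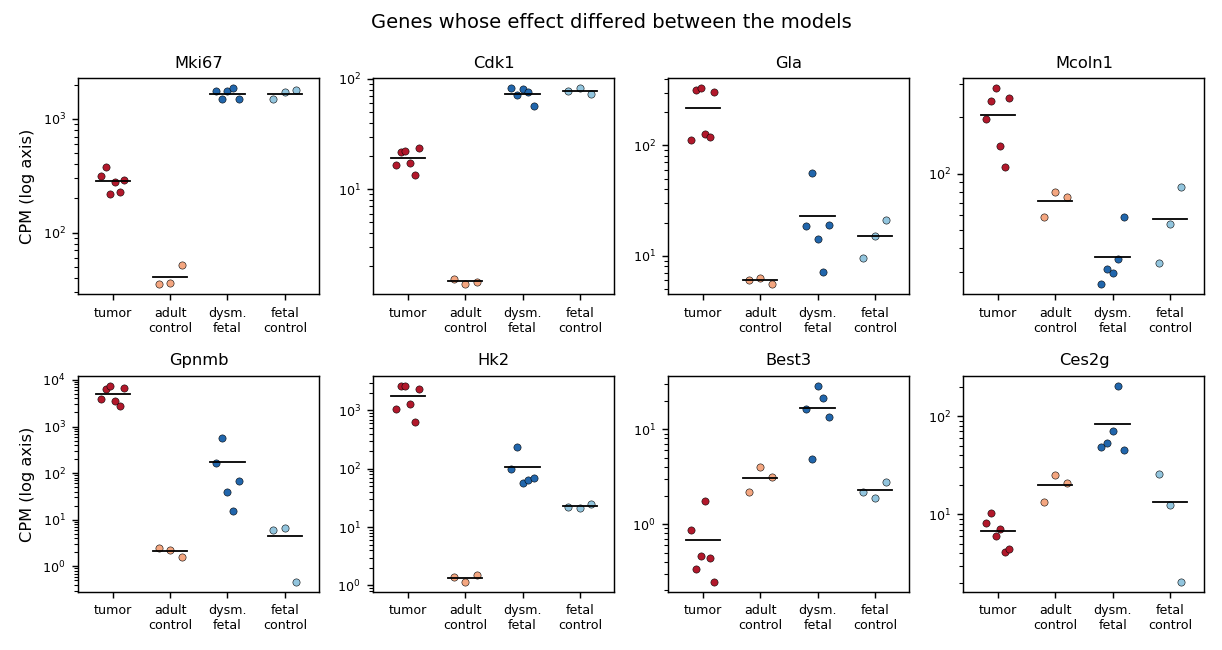
Levels (CPM, log axis) of Mki67, Cdk1, Gla, Mcoln1, Gpnmb, Hk2, Best3 and Ces2g, whose effect differed between the models, with a point for each of the 17 animals and a line at the mean of each group. Mki67, Cdk1, Gla and Mcoln1 separate tumors from adult controls while the fetal groups overlap, Gpnmb and Hk2 are higher in fusion animals of both models, and Best3 and Ces2g are lower in tumors and higher in dysmorphic fetuses.

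Among the genes with large negative differences, several were lower in tumors and higher in dysmorphic fetuses. Best3, a chloride channel of muscle, stood at 0.245 to 1.75 CPM in kidney tumors, with a median of 0.449 CPM, and 2.16, 3.98 and 3.14 CPM in adult controls. Levels were 16.3, 4.9, 28.7, 21.2 and 13.4 CPM in dysmorphic fetuses and 2.2, 1.9 and 2.81 CPM in control fetuses. Tumors were below adult controls and dysmorphic fetuses above control fetuses, without overlap in either model, and the difference was -5.05 (SE 0.87, 95% interval -6.90 to -3.20, adjusted p = 0.00216). Perm1, a regulator of muscle mitochondria, had levels of 0.802 to 6.28 CPM in kidney tumors, with a median of 1.54 CPM, and 16.4, 18.9 and 17 CPM in adult controls, and 33.8, 13.3, 36.3, 33 and 17.6 CPM in dysmorphic fetuses and 5.76, 6.47 and 5.89 CPM in control fetuses. Its effects of -2.71 and 2.15 differed by -4.86 (SE 0.86, 95% interval -6.70 to -3.02, adjusted p = 0.00271). Ces2g, a carboxylesterase, had a difference of -4.21 (SE 0.91, 95% interval -6.14 to -2.28, adjusted p = 0.0102). The calls of these 3 genes held in all 17 fits. Slc22a4, a carnitine and ergothioneine transporter of the tubule, stood at 5.67 to 36.4 CPM in kidney tumors, with a median of 11.9 CPM, and 59.2, 56.6 and 53.3 CPM in adult controls, and 10.6, 5.06, 9.78, 17.6 and 5.16 CPM in dysmorphic fetuses and 3.75, 1.85 and 0.565 CPM in control fetuses. Its difference of -3.93 (SE 0.90, 95% interval -5.84 to -2.01, adjusted p = 0.0147) was lost without control fetus 2. Wif1, a secreted Wnt inhibitor, had a difference of -5.19 (SE 1.47, 95% interval -8.32 to -2.06, adjusted p = 0.0402), called in 8 of 17 fits and lost without adult control 1, 2 or 3, dysmorphic fetus 1, 3 or 4 or control fetus 1, 2 or 3, with fetal levels of 10.5 to 48.3 CPM compared to 0.659 to 5.02 CPM. Sypl2, lost without control fetus 2 or 3, and Prkag3, lost without adult control 2 or control fetus 1, 2 or 3, are muscle genes that differed by -4.10 and -4.41. Grip2, Fitm1, Pgam2, Pik3c2g and Ptgfr differed by between -4.83 and -3.89, with calls in 12, 8, 3, 10 and 4 of the 17 fits, each lost without adult control 2 or 3 and without control fetus 1, 2 or 3. Of the skeletal muscle list, all 24 genes tested were higher in every dysmorphic fetus than in every control fetus, compared to 8.79% of all genes, and 15 were called higher in tumors, compared to 15.5%, but 3 were higher in every tumor than in every adult control. Their summed level was 1398 and 2059 CPM in tumor mice 2 and 4 and 321 CPM in tumor mouse 5, while tumor mice 1, 3 and 6, at 94.3, 101 and 68.4 CPM, lay below the adult controls, at 222, 228 and 162 CPM. Their median effect was 4.24 in the adult model, or 3.74 with genes absent from a group at their bound, and 2.15 in the fetal model. The median difference was 2.04, or 1.49 at the bound. None was called for the difference. Without tumor mice 2 and 4 the skeletal muscle list had a median adult effect of 1.56, a median difference of -0.57 and 3 differences called below 0. The part of muscle in the 12 negative differences was not tested.

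Cartilage, bone and tendon genes had a median effect of 1.91 in the adult model and 4.87 in the fetal model over 18 genes, with 2 differences called in each direction, compared to 6.87% above and 2.07% below of all genes. Their summed level was 150, 139, 1697, 871 and 3053 CPM in dysmorphic fetuses and 45.3 to 71.1 CPM in control fetuses. Adult sums overlapped, at 85.8 to 253 CPM in tumors and 153 to 278 CPM in controls. In the fetuses 5 of the 18 genes were higher in every dysmorphic than in every control kidney, compared to 8.79% of all genes. Scx, a tendon factor, was called above 0, with levels of 2.27 to 18.4 CPM in kidney tumors, with a median of 7.37 CPM, and 0.294, 0.233 and 0.301 CPM in adult controls, and 1.95, 1.71, 3.44, 3.38 and 3.27 CPM in dysmorphic fetuses and 1.41, 0.76 and 0.667 CPM in control fetuses, and a difference of 3.57 (SE 0.75, 95% interval 1.99 to 5.16, adjusted p = 0.00832) that held in all 17 fits. Of 20 leukocyte and macrophage genes, 2 were called above 0, near the 6.87% of all genes. Cd68, a lysosomal glycoprotein of macrophages, stood at 32 to 174 CPM in kidney tumors, with a median of 108 CPM, and 6.23, 7.6 and 7.2 CPM in adult controls, and 23, 26.5, 29.9, 22.2 and 14.2 CPM in dysmorphic fetuses and 10.5, 12 and 6.76 CPM in control fetuses. Fusion animals were above controls without overlap in both models, and the difference was 2.77 (SE 0.56, 95% interval 1.58 to 3.96, adjusted p = 0.00669), which held in all 17 fits. S100a8, a neutrophil gene, differed by 5.61, lost without adult control 1, 2 or 3 or control fetus 1. Over the 17 fits its difference ran from 2.24 to 6.13. Its level was 44.4 CPM in control fetus 1 and 1.77 and 1.61 CPM in control fetuses 2 and 3. Muc2 differed by 8.95 (SE 1.73, 95% interval 5.26 to 12.63, adjusted p = 0.00497) and kept its call in all 17 fits, and it stood at 642 CPM in control fetus 3 and at most 16.7 CPM in every other animal. Its difference was 4.34 without that fetus.

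Genes called in opposite directions were few. There were 4, or 0.0164% of genes tested, and none without control fetus 1, 2 or 3 or without dysmorphic fetus 1, 3 or 4. Pde4dip, a scaffold for phosphodiesterase in muscle and centrosome (chr3:97689824-97888707, GRCm38), stood at 55.4 to 133 CPM in kidney tumors, with a median of 95.2 CPM, and 193, 239 and 212 CPM in adult controls. Levels were 415, 176, 427, 491 and 309 CPM in dysmorphic fetuses and 95.9, 96.6 and 102 CPM in control fetuses. Tumors were below adult controls and dysmorphic fetuses above control fetuses, without overlap. Effects of -1.14 and 1.89 gave a difference of -3.03 (SE 0.43, 95% interval -3.94 to -2.12, adjusted p = 0.000398). Rora, a nuclear receptor of metabolism and the circadian clock, had levels of 66.3 to 88.4 CPM in kidney tumors, with a median of 77.9 CPM, and 135, 121 and 122 CPM in adult controls, and 43.4, 42.1, 43.4, 65.5 and 31.8 CPM in dysmorphic fetuses and 28.5, 19.9 and 16.2 CPM in control fetuses. Its difference was -1.77 (SE 0.29, 95% interval -2.38 to -1.16, adjusted p = 0.00124). Hoxa11os, antisense to Hoxa11 and at most 1.57 CPM, went the other way, with effects of 1.90 and -2.94. The libraries were stranded, but whether the counting used strand is not given in the sources used here, so it could not be told apart from its partner. The differences of Pde4dip, Rora and Hoxa11os were called in all 17 fits, whereas the fetal effects were called in 11, 8 and 8. The adult effect of Hoxa11os was called in 5 fits and that of Rora in all but the fit without adult control 1.

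Shared effects were defined as a call in both models in the same direction. They were found for 47 genes, 0.192% of those tested, 28 higher (0.115%) and 19 lower (0.0777%). The fetal call was the limit, with adjusted p-values of 0.0147 to 0.0499 in edgeR, and no shared gene kept its fetal call in all 17 fits. The count was 0 without control fetus 1 or 2, 2 without dysmorphic fetus 1 or 3, 7 without control fetus 3, 9 without adult control 2 or 3, 14 without adult control 1 and 13 without dysmorphic fetus 4, and it rose to 116 without tumor mouse 5, 108 without tumor mouse 6, 157 without dysmorphic fetus 2 and 244 without dysmorphic fetus 5. A wider group of 567 genes (2.32%) was higher in every fusion animal than in every control of its model, 378 (1.55%) were lower in both, and 191 (0.781%) moved apart.

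Of the 28 genes shared higher, adult effects had a median of 1.68, and fetal effects were 1.21 to 6.28 with a median of 2.01. Adult effects were 0.77 to 5.45 for 27 of them. The other, Gm42525, had no count in adult controls and a mean of 2.93 CPM in tumors, and the median was the same with it at its bound against 3 counts in each adult control. The fetal effect was the larger in 16. Fewer genes passed the fetal test, 0.65% compared to 24.2%, at a like median SE of 0.4 and 0.39. The choice of shared genes therefore favors a larger fetal effect. Groups did not overlap in either model for 25, compared to 2.32% of all genes, but a call in both models favors such separation. The difference itself was called for 4, Adprhl1, Tceal5, Kdelr3 and Gm42525, all with the adult effect above. The interval of the difference lay within 1 log2 unit of 0 for none of the 28, so for none of them were the effects shown to be of like size.

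Bhlhe41, a repressor of the circadian clock (chr6:145858243-145865558, GRCm38), stood at 114 to 344 CPM in kidney tumors, with a median of 233 CPM, and 11.5, 10.1 and 7.93 CPM in adult controls. In the fetuses it stood at 18.9, 60.8, 15.4, 8.71 and 15.3 CPM in dysmorphic fetuses and 4.42, 3.02 and 2.57 CPM in control fetuses. Groups did not overlap in either model, and dysmorphic fetus 2 was highest among the fetuses. The adult effect was 4.55, the fetal effect 2.84 and the difference 1.71 (SE 0.72, 95% interval 0.17 to 3.25, adjusted p = 0.155). Cpeb1, which regulates polyadenylation of messenger RNA, had levels of 78.9 to 244 CPM in kidney tumors, with a median of 155 CPM, and 10.6, 12 and 9.76 CPM in adult controls, and 4.34, 15.5, 2.99, 1.6 and 7.05 CPM in dysmorphic fetuses and 0.927, 0.775 and 0.667 CPM in control fetuses. Its effects of 3.92 and 3.0 differed by 0.92 (SE 0.76, 95% interval -0.70 to 2.54, adjusted p = 0.494). Kcna2, a potassium channel of neurons, rose by 3.26 and 2.66. The fetal calls of Bhlhe41, Cpeb1 and Kcna2 were lost without adult control 1, 2 or 3, control fetus 1, 2 or 3 or dysmorphic fetus 1 or 3. Pthlh, the parathyroid hormone-related protein, rose by 3.43 and 2.36. Tceal5, an elongation factor-like gene of the X chromosome (chrX:136200948-136203876, GRCm38), stood at 8.66 to 27.9 CPM in kidney tumors, with a median of 26.9 CPM, and 0.457, 0.51 and 0.524 CPM in adult controls, and 24.7, 10.5, 31.4, 33.5 and 20.2 CPM in dysmorphic fetuses and 4.16, 5.3 and 6.07 CPM in control fetuses. Fusion animals were again above controls in both models, and the difference of 3.23 (SE 0.56, 95% interval 2.04 to 4.42, adjusted p = 0.00226) held in all 17 fits, while the fetal call held in 8, lost without dysmorphic fetus 1, 3 or 4, adult control 1, 2 or 3 or control fetus 1, 2 or 3.

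Promoters of the shared genes were read for the same letters. CACGTG was found in 5 of 19 windows of genes shared higher (26.3%), 1 of 12 of genes shared lower (8.33%) and 10.3% of all. Bhlhe41 at chr6:145865371-145865670, minus strand and Tceal5 at chrX:136203835-136204134, minus strand are printed as shared genes with a match, in the same way as above. RefSeq listed further start sites for Tceal5, and the first window is shown.
Bhlhe41: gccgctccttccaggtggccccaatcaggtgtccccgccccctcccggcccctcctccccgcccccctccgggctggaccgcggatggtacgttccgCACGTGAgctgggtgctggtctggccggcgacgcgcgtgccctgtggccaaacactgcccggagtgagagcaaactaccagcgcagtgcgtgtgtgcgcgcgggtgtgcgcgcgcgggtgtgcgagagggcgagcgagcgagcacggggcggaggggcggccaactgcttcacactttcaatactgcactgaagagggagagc
Tceal5: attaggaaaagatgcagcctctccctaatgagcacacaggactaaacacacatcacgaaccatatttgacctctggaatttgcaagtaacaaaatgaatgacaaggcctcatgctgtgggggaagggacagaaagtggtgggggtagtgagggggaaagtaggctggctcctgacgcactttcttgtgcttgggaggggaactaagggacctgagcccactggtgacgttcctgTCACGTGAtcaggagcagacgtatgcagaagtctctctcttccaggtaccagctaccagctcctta
Each held a single TCACGTG, counting both strands.

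**Figure D5:**
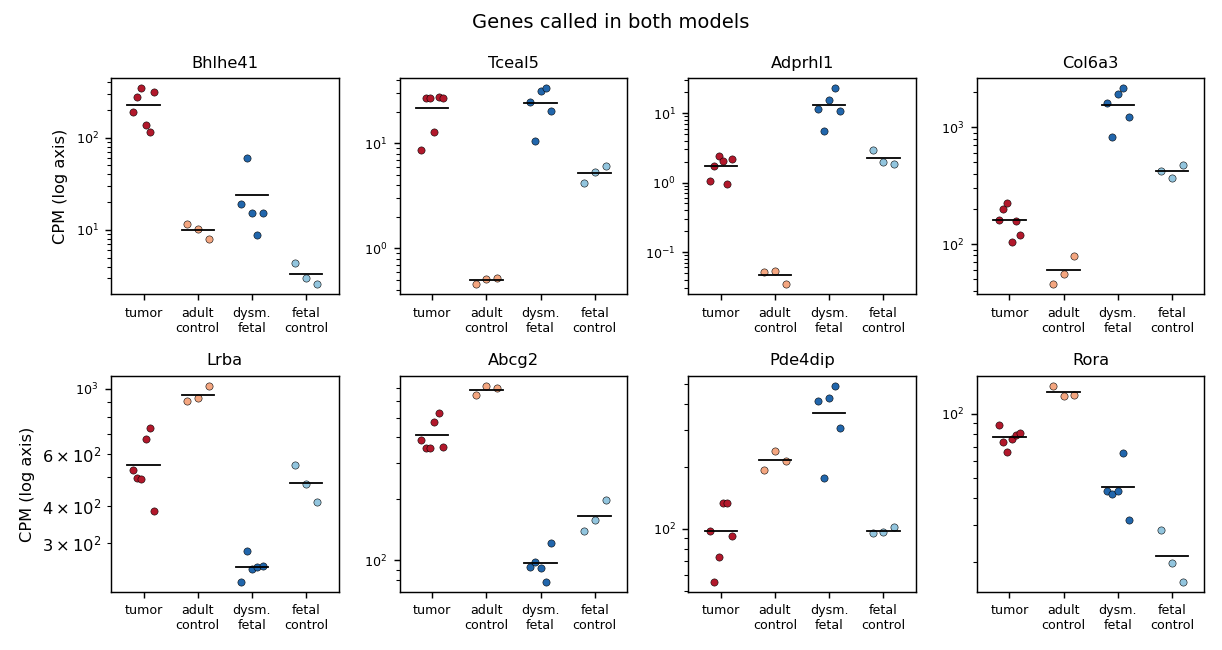
Levels (CPM, log axis) of 8 genes called in both models, with a point for each of the 17 animals and a line at the mean of each group. In both models the fusion animals lie above the controls for Bhlhe41, Tceal5, Adprhl1 and Col6a3 and below them for Lrba and Abcg2, while Pde4dip and Rora are lower in tumors and higher in dysmorphic fetuses.

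Of 24 collagens and matrix genes, 21 were called higher in tumors and 2 in dysmorphic fetuses, compared to 15.5% and 0.417% of all genes. All 24 had effects above 0 in both models, 14 were higher in every fusion animal of both models, compared to 2.32% of all genes, and 2 were shared, Col5a2 and Col6a3. Col6a3, a chain of microfibrillar collagen, stood at 104 to 224 CPM in kidney tumors, with a median of 160 CPM, and 45.4, 55.6 and 79.2 CPM in adult controls, and 1625, 818, 1924, 2159 and 1229 CPM in dysmorphic fetuses and 421, 368 and 478 CPM in control fetuses. Groups were apart in both models, with effects of 1.42 and 1.88 and a difference of -0.45 (SE 0.42, 95% interval -1.34 to 0.43, adjusted p = 0.544). Col5a2, a fibrillar collagen, had effects of 1.36 and 1.52 and an interval of the difference from -1.0 to 0.69. The fetal call of Col6a3 was lost without dysmorphic fetus 1 or 3 or control fetus 1, 2 or 3, and that of Col5a2 also without dysmorphic fetus 4 or adult control 1, 2 or 3. Col5a3, shared outside the list, rose by 3.62 and 2.23, and Aspn, a small proteoglycan of connective tissue, by 1.53 and 1.99. In 6 of the 24 the difference was called, with the adult effect above, compared to 6.87% of all genes. Timp1, an inhibitor of matrix proteases, stood at 9.44 to 51.1 CPM in kidney tumors, with a median of 28.3 CPM, and 0.391, 0.403 and 0.404 CPM in adult controls, and 4.7, 4.15, 8.68, 7.54 and 9.34 CPM in dysmorphic fetuses and 4.16, 3.2 and 3.95 CPM in control fetuses. Its difference was 5.35 (SE 0.67, 95% interval 3.93 to 6.77, adjusted p = 0.00011) and held in all 17 fits. Mmp14, a membrane protease, and Col4a1, a basement membrane collagen, differed by 1.87 and 1.44, and lost their calls without adult control 1, and without control fetus 3 for Mmp14 or control fetus 1 for Col4a1. The other 3, Col1a1, Col4a2 and Fn1, were called in 4, 5 and 6 of 17 fits, and the whole list gave 1 call without adult control 1 and 2 without control fetus 1 or 3.

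Further genes shared higher included Abca8b, a lipid transporter, at 37.4 to 90.9 CPM in kidney tumors, with a median of 57.2 CPM, and 20.8, 17.4 and 22.2 CPM in adult controls, and 94.2, 67.5, 101, 68.9 and 68.1 CPM in dysmorphic fetuses and 20.8, 20 and 19.1 CPM in control fetuses. Groups did not overlap, the effects were 1.60 and 2.0, the difference was -0.40 (SE 0.37, 95% interval -1.20 to 0.40, adjusted p = 0.555), and the fetal call was lost without control fetus 1 or 2. Jph1 and Adprhl1, which serve the muscle membrane system and the sarcomere, rose by 2.17 and 5.20 in tumors and by 1.98 and 2.55 in dysmorphic fetuses, in which skeletal muscle markers were higher. Adprhl1 differed by 2.66 (SE 0.59, 95% interval 1.41 to 3.90, adjusted p = 0.0119), which held in all 17 fits. Hr, a corepressor of hair follicles, had effects of 1.45 and 2.48. Prg4, the lubricant of joints, had effects of 3.27 and 6.28 and stood at 15.6, 4.15, 125, 156 and 33.8 CPM in dysmorphic fetuses and 1.19, 0.736 and 0.65 CPM in control fetuses, beside cartilage markers that were high in some dysmorphic fetuses. Its adult call held in 5 and its fetal call in 7 of 17 fits.

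For the 19 genes shared lower the effects were smaller. Adult effects were -3.92 to -0.36 with a median of -0.79, and fetal effects were -4.85 to -0.46 with a median of -0.95. The fetal effect was the larger for all 19, which the stricter fetal call favors, as for the genes shared higher. None of the differences was called, and the interval lay within 1 log2 unit of 0 for 13 of 19. Groups did not overlap in either model for 18, compared to 1.55% of all genes, and again a call in both models favors such separation. Abcg2, the urate and drug exporter of the tubule brush border (chr6:58584523-58695676, GRCm38), stood at 353 to 528 CPM in kidney tumors, with a median of 373 CPM, and 648, 714 and 695 CPM in adult controls. Fetal values were 93, 98, 91.9, 78.5 and 122 CPM in dysmorphic fetuses and 139, 158 and 198 CPM in control fetuses. The effects were -0.74 and -0.77, with a difference of 0.02 (SE 0.23, 95% interval -0.47 to 0.52, adjusted p = 0.968). Gstt1, a glutathione transferase, had levels of 21.7 to 43.4 CPM in kidney tumors, with a median of 34.5 CPM, and 73.8, 83.1 and 63.9 CPM in adult controls, and 1.77, 1.76, 1.75, 1.17 and 1.72 CPM in dysmorphic fetuses and 4.26, 4.13 and 2.58 CPM in control fetuses. Its effects of -1.13 and -1.16 had a difference of 0.03 (SE 0.34, 95% interval -0.71 to 0.76, adjusted p = 0.977). Lrba, which protects receptors from lysosomal breakdown, fell by 0.79 in tumors and by 0.95 in dysmorphic fetuses, and Hipk2, a kinase of the stress response, fell by 0.78 and 0.95. Dhrs4, a peroxisomal retinal reductase, fell by 0.95 and 1.24, and Entpd5, a nucleotidase of the endoplasmic reticulum, by 0.82 and 1.27. Tbx3, a developmental repressor, stood at 2.6 to 7.77 CPM in kidney tumors, with a median of 5.98 CPM, and 10.2, 11 and 12.5 CPM in adult controls, and 18.3, 21.6, 11.2, 11.5 and 29.2 CPM in dysmorphic fetuses and 48.9, 55.6 and 76.3 CPM in control fetuses. Its effects were -0.99 and -1.71. Gca, a calcium-binding protein, had effects of -1.14 and -1.93. The other named genes shared lower, Map3k15, Cfap126, Lrrc8d and Mia2, had adult effects of -0.82 to -0.62 and fetal effects of -1.06 to -0.81. The fetal calls of these 12 genes held in 4 to 12 of the 17 fits, and all 12 were lost without control fetus 1 or 2 and without dysmorphic fetus 1 or 3. Their adult calls held in all 17 fits for Gstt1, Dhrs4, Cfap126, Lrba, Hipk2 and Abcg2, and the others lost theirs without at least 1 of the adult controls.

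For oxidative phosphorylation, peroxisome, proximal tubule, distal nephron and podocyte genes no difference was called, and the intervals show how far that reaches. Of 25 oxidative phosphorylation genes, none was called and the interval of the difference lay within 1 log2 unit of 0 for 16, compared to 5177 of the 24444 genes tested. Sdha, a subunit of succinate dehydrogenase, had effects of -0.70 and -0.19 and an interval from -1.10 to 0.08. Of 27 peroxisome genes, none was called and 11 had such an interval, and the median effects were -0.43 and -0.51. Hsd17b4, of peroxisomal fatty acid oxidation, fell by 0.47 in tumors, and its fetal effect of -0.61 missed the threshold (edgeR adjusted p = 0.0696), with an interval of the difference from -0.32 to 0.60. Of 21 proximal tubule genes the effect was above 0 for 1 in each model, compared to 54.7% and 45.5% of all genes, and the medians were -1.81 and -2.47, with -2.6 in the fetuses without control fetus 3, but no interval lay within 1 log2 unit, so a difference of that size could not be seen. Lrp2, the endocytic receptor megalin, stood at 582 to 4413 CPM in kidney tumors, with a median of 1005 CPM, and 6499, 6428 and 6288 CPM in adult controls, and 19.3, 101, 24.6, 7.6 and 60.4 CPM in dysmorphic fetuses and 920, 398 and 70.9 CPM in control fetuses. Tumors were below adult controls without overlap, whereas dysmorphic fetus 2 was above control fetus 3. Neither effect was called, and the difference was 1.76 (SE 1.27, 95% interval -0.95 to 4.47, adjusted p = 0.425). Without control fetus 3 its fetal effect moved from -3.44 to -3.89 and its difference to 2.22, with neither called. For 20 distal nephron and collecting duct genes the medians were -2.38 and -2.54, the latter -2.9 without control fetus 3, for 12 podocyte genes -0.23 and -0.51, and none was called. Of 15 imprinted fetal growth genes, 11 were higher in every dysmorphic fetus than in every control fetus, compared to 8.79% of all genes. The difference was called above 0 for 1, the receptor Igf2r, with 1.76, compared to 6.87% of all genes. The Igf2r call held in 9 of 17 fits, lost without tumor mouse 3, adult control 1, 2 or 3, dysmorphic fetus 1 or 4 or control fetus 2 or 3. Dlk1, an imprinted Notch ligand, had effects of 1.91 and 1.96 and an interval of the difference from -2.69 to 2.61.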

How the data were processed

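RNA from formalin-fixed, paraffin-embedded mouse kidney had been made into stranded total RNA libraries. The authors deposited raw counts per gene. Per the labels, STAR 2.5.2a, Bowtie2, FastQC and MultiQC were used with GRCm38 (mm10), and the counter, annotation and its strand setting are not given in the sources used here. Of 53379 gene identifiers, 53274 matched GENCODE M21 when the version was ignored, and coordinates are from that annotation. Of counts from 1 to 20, 79.49% to 84.33% were even in every library, so independent fragments are fewer than counts, and halved counts were fitted as an alternative. Reads had no molecular identifiers, and floors of 3 counts cover counting error only.

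Libraries of the same animal were added together, giving 6 kidney tumor mice, 3 adult control mice, 5 dysmorphic fetuses and 3 control fetuses. Same-mouse libraries were not copies of each other. Genes passing filterByExpr were fitted together with a coefficient per group, with edgeR 4.0.16 in R 4.3.3 (TMM, quasi-likelihood F-test), and the adult effect, the fetal effect and their difference were tested at an adjusted p under 0.05 (Benjamini-Hochberg over 24444 genes). SE was the size of the log2 change divided by the square root of F. The code was tested on simulated data.

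Members, gene lists and tests were chosen with earlier results of these data known. Named genes were the 12 largest called differences in each direction above a mean level of 2 (log2 CPM), without overlap in the model with the larger effect, the 12 genes shared in each direction with the largest smaller effect, genes called in opposite directions, and genes of the lists. Some of these are not reported here. Kdelr3 and Gm42525 fell outside this rule and were named after their values were seen. Alternatives were other scaling factors, DESeq2 1.42.0, limma-voom (limma 3.58.1), other filters, halved counts, a test against a 1.5-fold change, covariates, single libraries and leaving out animals. Promoter windows were RefSeq, GRCm38.p6. Tumors outside the kidney and non-transformed kidneys, 11 libraries, were not used here.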

Additional observations from a re-analysis of the deposited data

Results flagged for a closer look

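In 9 of 264 groups of 5 or 6 animals examined, the highest or lowest animal lay far from the others by Dixon's criterion at 95%, and chance alone marks about 1 in 20 such groups. In dysmorphic fetus 5, Hexa was 188 CPM, Atp6v0a1 166 CPM, Fdps 5.19 CPM and Muc2 10.7 CPM, each the highest of the 5 dysmorphic fetuses. Gstt1 was lowest in dysmorphic fetus 4, at 1.17 CPM, and Ctsk was lowest in dysmorphic fetus 2, at 9.69 CPM. Among tumors, Clec18a was 2.5 CPM and Cd68 32 CPM in tumor mouse 5, and Lrrc8d was 137 CPM in tumor mouse 2, each the lowest.

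The effect differed between the models, by the test of the difference itself, for 2185 genes. Of the 132 genes named by rule, 92 were among them, and the values that follow are the adult effect minus the fetal effect on the log2 scale. The largest positive differences were Ugt2b35 14.29, Nrsn1 12.47, Hsd3b6 12.19, Lce1a2 11.19, Nmrk2 10.36, Spaca7 10.15, Clec18a 10.06, Ivl 9.14, Muc2 8.95, Lce1d 8.76, Dmbt1 8.65, Eef1a2 8.46, Brinp3 8.32, Hk2 8.16, Ret 7.19, Slc7a11 6.53, Eya1 6.48, Trpm1 6.15, Gpnmb 5.98, S100a8 5.61, Timp1 5.35, Sox9 5.33, Ugt1a10 5.19 and Lcn2 5.01. Nrsn1 and Lce1a2 had no count in adult controls and Nmrk2, Lce1d and Oca2 at most 2, so their values and places here depend on the prior count. Next in size were Cited1 4.90, Hoxa11os 4.84, Gla 4.59, Insig1 4.57, Oca2 4.39, Akr1b8 4.12, Rragb 4.02, Ccnb1 3.93, Birc5 3.81, Cdk1 3.80, Scx 3.57, Ugt1a6b 3.30, Top2a 3.24, Tceal5 3.23, Fdps 3.12, Vcam1 2.91, Hexa 2.87, Mki67 2.79, Cd68 2.77, Adprhl1 2.66, Ctsl 2.53, Hmox1 2.47 and Ctsd 2.36. The smallest positive differences were Atp6v0a1 2.19, Mcoln1 2.19, Ctsb 2.19, Emx2 2.17, Col1a1 2.07, Pfkp 1.99, Atp6v0c 1.97, Sqle 1.89, Fnip2 1.88, Fn1 1.87, Mmp14 1.87, Atf5 1.84, Atp6v1g1 1.83, Rragc 1.79, Igf2r 1.76, Rgs5 1.74, Lamtor1 1.68, Tsc1 1.58, Atp6v0d1 1.56, Sqstm1 1.54, Atp6v1c1 1.46, Uvrag 1.44, Col4a1 1.44, Timp2 1.38, Col4a2 1.37 and Lamtor3 1.20. Negative differences were Alb -6.68, Wif1 -5.19, Best3 -5.05, Perm1 -4.86, Pik3c2g -4.83, Pgam2 -4.50, Prkag3 -4.41, Ces2g -4.21, Krt80 -4.21, Sypl2 -4.10, Grip2 -4.04, Fitm1 -4.00, Slc22a4 -3.93, Ptgfr -3.89, Klf1 -3.30, Pde4dip -3.03, Rora -1.77, Mitf -1.66 and Pfkm -1.64.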

How the results depend on the processing

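Over the alternatives no called difference changed sign except 5 with the M1833 fetuses alone. Of 4856 values of named genes under alternatives, 3735 kept direction and side of the threshold, 1118 kept direction without a call, and 3 took the other sign, all with the M1833 fetuses alone (Lce1a2 -2.12, Lce1d -4.07 and Trpm1 -3.08). The single M1833 control had no count of these 3 genes, so these fitted values depend on the prior count and measure no direction. The counts of genes that differed, were shared and went in opposite directions were 2185, 47 and 4. They were 3712, 622 and 92 with DESeq2, 3308, 411 and 54 with limma-voom, 1018, 0 and 0 against a 1.5-fold change, and 1205, 0 and 0 with the first listed library of each animal. The shared count was 30 with no filter, 142 with a stricter filter (15 in opposite directions), 105 with sex as a covariate and 156 with each model fitted on its own groups, and 21 of those 156 were among the 47. Of the 47, 47 were kept with DESeq2 and 43 with limma-voom. The split into shared higher and lower moved from 28 and 19 to 57 and 13 with RLE factors and 495 and 127 with DESeq2. It was 247 and 164 with limma-voom and 147 and 9 with each model on its own groups. The cause of these changes was not tested. Leaving out an animal gave 956 to 2954, 0 to 244 and 0 to 33. Chosen after seeing the data, the H0248 fetuses alone gave 970, 0 and 0, the M1833 fetuses alone 307, 0 and 0, and leaving out tumor mice 2 and 4, which held the most muscle transcripts, 90 shared and 11 opposite. The adult effect was above the fetal effect in 76.9% of called differences, 64.1% with DESeq2, 65.0% with limma-voom and 86.1% against a 1.5-fold change. The median difference over all genes was 0.16, and 0.07 with RLE factors. Differences under about 1.18 log2 units lay within the 95% interval for a typical gene. No paired analysis was possible because the replicate numbers pair no animals, while the title prefix of the fetuses, fitted as a covariate, gave 2336, 58 and 3.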
